A study of Mus musculus with 10 samples.

Results

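The platelet-derived growth factor (PDGF) genes examined were the ligand genes *Pdgfa*, *Pdgfb*, *Pdgfc* and *Pdgfd*, the receptor genes *Pdgfra* and *Pdgfrb*, and *Pdgfrl*, which encodes a PDGF receptor-like protein. They were chosen by gene symbol and make up 7 of the 19942 symbols on the array, with 1 probe each. The samples were RNA of the left ventricle of male C57BL/6J mice, which were 8 weeks old at surgery. The surgery was either transverse aortic banding (TAB), which narrows the aortic arch and overloads the ventricle with pressure, or a sham operation. Tissue was taken after surgery on day 3, 5, 7, 14 or 28, with 1 TAB and 1 sham sample a day and 10 samples in all, and the number of mice behind a sample is not given. With 1 sample per operation and day, no p-value was given for a single day, and the 5 days served as replicates of the mean TAB effect. The p-values therefore measure the spread between these samples.

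PDGF ligands are secreted as dimers that bind and activate receptor tyrosine kinases on the cell surface. PDGF-A and PDGF-C act through the alpha receptor (*Pdgfra*), PDGF-D acts mainly through the beta receptor (*Pdgfrb*), and PDGF-B binds both. In the heart, *Pdgfra* is known as a marker of fibroblasts and *Pdgfrb* as a marker of pericytes and other mural cells of vessels, while endothelial cells, platelets and macrophages are known sources of PDGF-B. The *Pdgfrl* protein resembles the extracellular part of the receptors and has no kinase domain.

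RefSeq promoter windows (build GRCm38.p6) were at hand for *Pdgfa* (2 windows), *Pdgfc*, *Pdgfd* and *Pdgfra*, and none was at hand for *Pdgfb*, *Pdgfrb* and *Pdgfrl*. The 250 bases before the start of 3 ligand genes are shown, 5′ to 3′ on the strand of the gene, as those ligand genes with a window, to show where the searched letters lie. Capitals mark the matches of the motifs searched.
Pdgfc, chr3:81036166-81036415, plus strand: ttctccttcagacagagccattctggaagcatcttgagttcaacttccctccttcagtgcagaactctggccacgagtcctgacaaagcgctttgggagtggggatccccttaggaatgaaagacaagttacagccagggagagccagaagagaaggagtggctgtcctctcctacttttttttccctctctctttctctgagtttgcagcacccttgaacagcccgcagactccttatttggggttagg
Pdgfa, chr5:138994945-138995194, minus strand: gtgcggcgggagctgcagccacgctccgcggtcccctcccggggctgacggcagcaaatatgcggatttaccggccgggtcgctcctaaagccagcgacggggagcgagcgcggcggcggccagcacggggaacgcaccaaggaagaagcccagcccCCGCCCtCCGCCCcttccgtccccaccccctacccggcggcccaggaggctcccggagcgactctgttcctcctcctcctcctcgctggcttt
Pdgfd, chr9:6168236-6168485, plus strand: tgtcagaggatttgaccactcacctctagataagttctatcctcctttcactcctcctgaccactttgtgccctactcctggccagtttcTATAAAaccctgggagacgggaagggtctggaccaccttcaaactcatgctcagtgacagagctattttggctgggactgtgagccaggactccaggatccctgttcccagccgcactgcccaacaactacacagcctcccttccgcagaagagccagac
The motifs were searched on both strands as the TATA box TATAAA, the GC box GGGCGG, the CCAAT box CCAAT, the AP-1 site TGANTCA and the E-box CACGTG. The *Pdgfa* window shown held 2 GC boxes, which began 93 and 86 bases before the start, and the other *Pdgfa* window held 1, which began 60 bases before the start. The *Pdgfd* window held 1 TATA box that began 160 bases before the start. The windows of *Pdgfc* and *Pdgfra* held none of these letters. Among 32851 mouse promoter windows, which run from 250 bases before to 50 bases after a start, 13.6% held the TATA box, 35.7% the GC box, 37.4% the CCAAT box, 7.81% the AP-1 site and 7.15% the E-box. The GC content over such a window was 73.3% for the *Pdgfa* window shown, 67% for the other *Pdgfa* window, 55% for *Pdgfc* and 56.7% for *Pdgfd*. It was 51% for *Pdgfra*, beside a median of 52.7% over all windows. A match is a description of the letters only.

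The array signal separated the members by whether they could be measured at all. The probes of *Pdgfa*, *Pdgfb*, *Pdgfd* and *Pdgfrl* were found as spots by the image software on all 10 arrays. The *Pdgfc* probe was found on 8 arrays, the *Pdgfra* probe on 2 and the *Pdgfrb* probe on none. Both receptor probes had scaled intensities below 1 and were removed by the filter on low values, and 5 of the 7 genes entered the tests. Normalized intensity below is a linear value after scaling and quantile normalization of the 10 samples, the log2 ratio is TAB over sham of the same day, and probes of different genes are not compared in level.

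*Pdgfrl*, the receptor-like gene, was the only one of the 5 tested members that passed the test of the mean TAB effect. Its normalized intensity in sham was 114, 100.3, 101, 112 and 101 on days 3, 5, 7, 14 and 28. In TAB it was 312, 329, 357, 346 and 209 on the same days. Every TAB sample lay above every sham sample, the sham samples stayed close together, and the TAB sample of day 28 was the lowest of its group. The group means were 106 ± 6.59 in sham and 311 ± 59.3 in TAB (SD, n = 5 each). The log2 ratios were 1.46, 1.71, 1.82, 1.63 and 1.05 over the days, so that *Pdgfrl* was higher in TAB on all 5 days and each ratio exceeded the largest difference between any 2 sham samples, 0.18. The mean log2 ratio was 1.53 (SE 0.14), a 2.90-fold difference with a 95% interval of 2.28 to 3.68, and its adjusted p was 0.0116 from limma. Of all 16113 genes tested, 9.19% were called higher and 7.87% lower in this fit, and among the 5 tested members 1 was called higher and none lower. Without the samples of day 3 the adjusted p of *Pdgfrl* from limma was 0.0558, and without those of day 7 it was 0.0579, with mean log2 ratios of 1.55 and 1.46. In these 2 fits 0.18% and 0.12% of all genes were called higher. The deposited detection p-value of *Pdgfrl* was above 0.05 on all 5 sham arrays and on 2 TAB arrays, although the spot was found on every array. In whole ventricle, more cells of a type and more RNA per cell cannot be told apart.

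**Figure D1:**
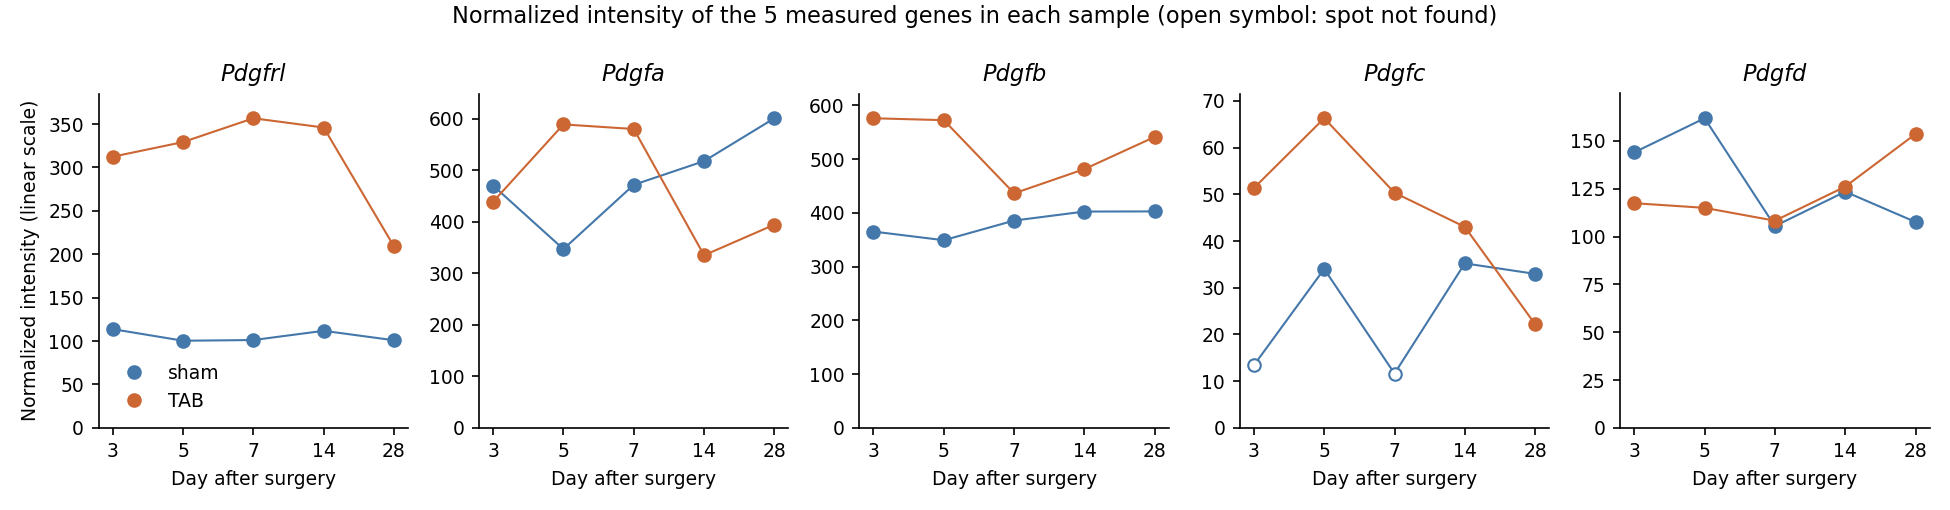
Normalized intensity (linear scale, y axis from 0) of the 5 measured PDGF genes against the day after surgery (days evenly spaced), with 1 point per sample, sham in blue and TAB in orange, and open points for spots that were not found. The *Pdgfrl* and *Pdgfb* samples of TAB lie above all sham samples, whereas the *Pdgfa* lines cross and the *Pdgfc* sham samples of days 3 and 7 are open.

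*Pdgfb*, the ligand of both receptors, was moderately higher in TAB and missed the threshold. Its normalized intensity in sham was 365, 349, 386, 403 and 403 on days 3, 5, 7, 14 and 28. In TAB it was 576, 573, 436, 482 and 542. The groups did not overlap, and the TAB samples of days 3 and 5 were the highest. The means were 381 ± 23.6 in sham and 522 ± 60.9 in TAB (SD, n = 5 each). The log2 ratios were 0.66, 0.71, 0.18, 0.26 and 0.43, of which all but that of day 7 exceeded the largest difference between 2 sham samples, 0.21. The mean log2 ratio was 0.45 (SE 0.13), a 1.36-fold difference with a 95% interval of 1.10 to 1.68, and the adjusted p from limma was 0.0574. Over the other settings, it passed the threshold in 8 fits, with adjusted p between 0.0171 and 0.0440 from limma, and missed it in 10, with adjusted p between 0.0528 and 0.159, among them every fit that left out a day.

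All 5 TAB samples lay above all 5 sham samples for 2 of the 5 tested members, *Pdgfb* and *Pdgfrl*, and for 9.99% of all genes tested. The exact two-sided permutation test of 5 against 5 samples, unadjusted, gave p = 0.0952 for *Pdgfc* and 0.802 for both *Pdgfa* and *Pdgfd*. For *Pdgfb* and *Pdgfrl*, groups that do not overlap fix this exact p at 0.00794, the smallest value that the design allows.

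*Pdgfc*, a ligand of the alpha receptor that is secreted in a latent form, had low intensities throughout. Its normalized intensity in sham was 13.4, 34.0, 11.6, 35.2 and 33.0 on days 3, 5, 7, 14 and 28, and the spots of days 3 and 7 were not found. In TAB it was 51.3, 66.3, 50.4, 43.0 and 22.2, and all 5 spots were found. The TAB samples of the first 4 days lay above all sham samples, and the TAB sample of day 28 lay below 3 of them. The deposited detection p-value was above 0.05 on all 10 arrays. The log2 ratios were 1.94, 0.96, 2.11, 0.29 and −0.57, and only those of days 3 and 7 exceeded the largest difference between 2 sham samples, 1.60. Averaged over the days, the log2 ratio was 0.95 (SE 0.42, 95% interval −0.06 to 1.96) and did not pass the test, with an adjusted p of 0.161 from limma. It was 0.59 when spots not found were raised to the 1st percentile of the found spots of the array, and 0.35 with 50 added before log2.

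*Pdgfa*, which also encodes a ligand of the alpha receptor, did not pass the test, and its ratio changed sign over the days. Its normalized intensity in sham was 470.2, 347, 472, 518 and 601 on days 3, 5, 7, 14 and 28. In TAB it was 439, 589, 580.1, 335 and 394. The ranges of the groups overlapped, with TAB above sham on days 5 and 7 and below it on days 14 and 28. The log2 ratios were −0.10, 0.76, 0.30, −0.63 and −0.61, and none exceeded the largest difference between 2 sham samples, 0.79. The mean log2 ratio was −0.05 (SE 0.23, 95% interval −0.62 to 0.51, adjusted p = 0.893 from limma), and its sign turned to 0.04 after median scaling only and to 0.03 after normalization within each operation. When each day was left out in turn it ranged from −0.26 without day 5 to 0.09 without day 14.

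*Pdgfd*, the ligand that acts mainly through the beta receptor, also had overlapping groups. Its normalized intensity in sham was 144, 162, 105, 123 and 108 on days 3, 5, 7, 14 and 28. In TAB it was 117, 115, 108, 126 and 154. The deposited detection p-value was under 0.05 on 1 array only, the sham sample of day 7, although the spot was found on all 10. Sham was the higher group on days 3 and 5, the operations were nearly level on days 7 and 14, and TAB was the higher on day 28. The log2 ratios were −0.29, −0.49, 0.04, 0.03 and 0.51, and none exceeded the largest difference between 2 sham samples, 0.62. The mean log2 ratio was −0.04 (SE 0.17, 95% interval −0.44 to 0.36, adjusted p = 0.887 from limma), and it was 0.01 after either of the other 2 scalings. When each day was left out in turn it ranged from −0.18 without day 28 to 0.07 without day 5.

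**Figure D2:**
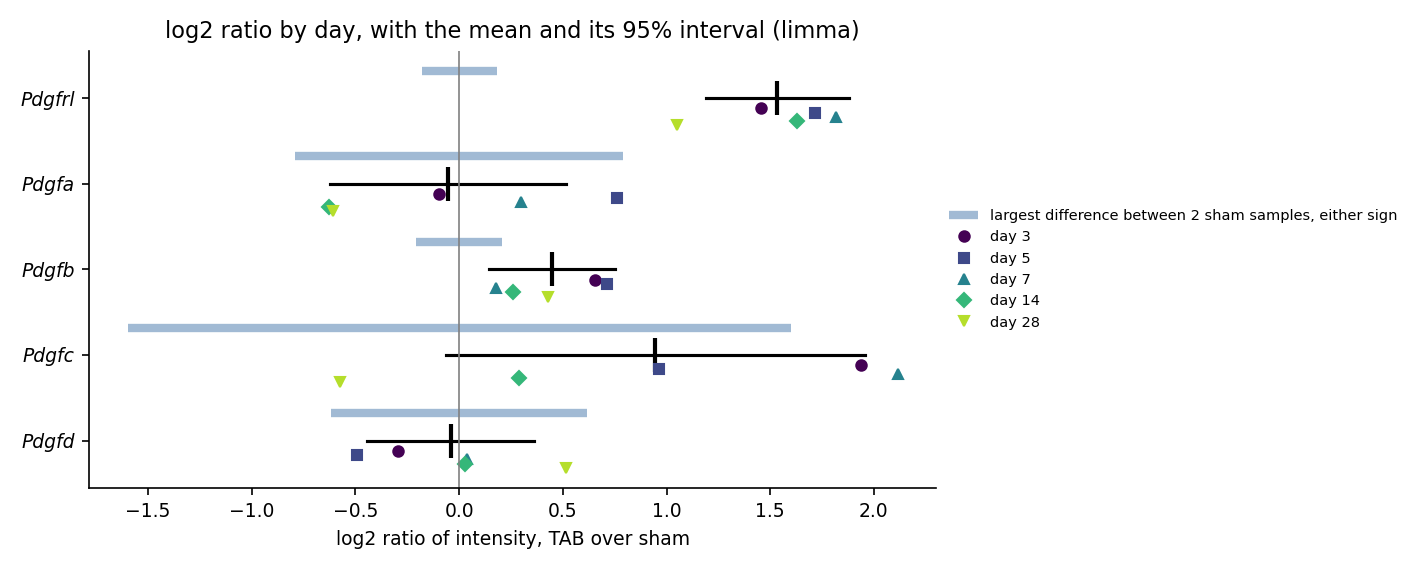
log2 ratio of TAB over sham (x axis) for the 5 measured PDGF genes, with 1 symbol per day, the mean with its 95% interval from limma in black, and a blue bar for the largest difference between 2 sham samples with either sign. The interval lies above 0 for *Pdgfrl* (1.19 to 1.88) and *Pdgfb* (0.14 to 0.75) and includes 0 for the other 3 genes.

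The probes of the receptors gave signal on 2 arrays for *Pdgfra* and on none for *Pdgfrb*. Both genes are known to be expressed in the heart, and how well these probes report them was not tested. The raw intensity of the *Pdgfra* probe in sham, with background subtracted, was −4, −4, 359, 469 and −5 on days 3, 5, 7, 14 and 28. In TAB it was −1, −1, −6, 0 and −1. The signal thus appeared in the sham samples of days 7 and 14 alone, and these were the only arrays where the spot was found, with detection p-values of 6.8e-05 and 0.00864. The raw intensity of the *Pdgfrb* probe lay between −4 and 3 on the 10 arrays, and its spot was found on none. No fold change or test was given for either receptor, and a spot that was not found says only that the probe was not well above background. Of the 26423 probes, 8983 were found on no array, and 5 were found on the sham arrays of days 7 and 14 alone, as *Pdgfra* was.

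**Figure D3:**
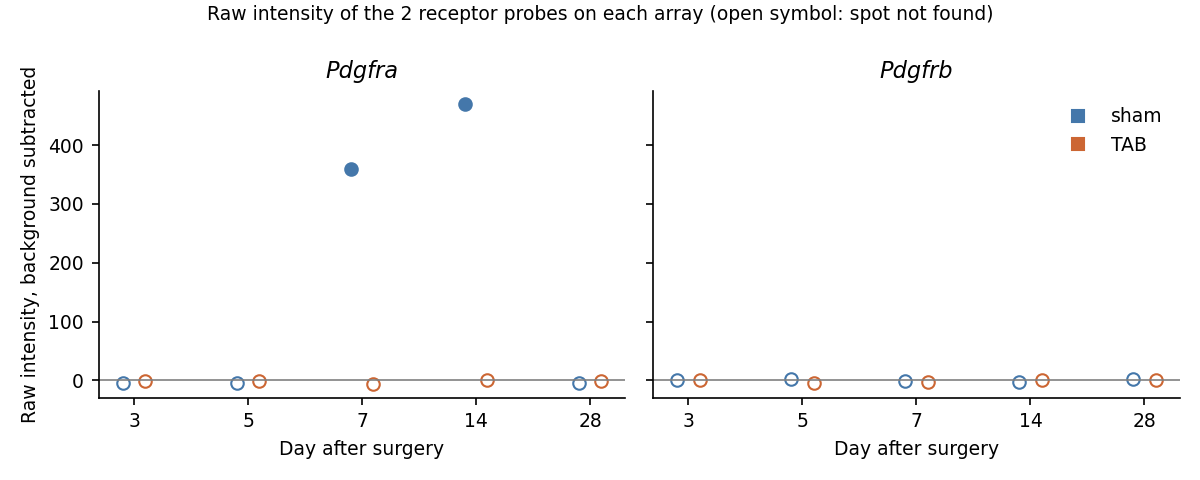
Raw background-subtracted intensity (linear scale) of the *Pdgfra* and *Pdgfrb* probes on each of the 10 arrays against the day after surgery (days evenly spaced), sham in blue and TAB in orange, with open points for spots that were not found. The *Pdgfra* spots of sham days 7 and 14 reach 359 and 469, and all other points lie between −6 and 3.

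The single days were examined with the rule that a gene is differentially expressed (DE) when its log2 ratio lies more than 2 SDs of that day's ratios from 0. This rule involves no test. 4 calls fell on the members, all up-regulated. *Pdgfrl* was DE on day 7 (log2 ratio 1.82, threshold 1.75) and on day 14 (1.63, threshold 1.48), when 4.08% and 3.39% of all genes were DE and up-regulated. *Pdgfc* was DE on day 3 (1.94, threshold 1.78) and on day 7 (2.11), and the share of all genes that were DE and up-regulated on day 3 was 3.1%. No member was DE on day 5 or day 28, when the share was 4.09% and 3.41%. Both *Pdgfc* calls were set against sham spots that were not found. When such spots were raised to the 1st percentile of the found spots of the array, the ratios of *Pdgfc* became 1.01 and 0.95 (thresholds 1.20 and 1.19), and neither call remained. With 50 added to the intensities before the logarithm they became 0.68 and 0.70, and again neither call remained, whereas *Pdgfrl* was DE on all 5 days under both of these settings. Over all genes and days, 4.99% and 4.68% were DE in either direction under these 2 settings. With spots raised, *Pdgfra* entered the comparison and was DE on days 7 and 14, lower in TAB, against the 2 sham spots that were found.

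The early days (3, 5 and 7) were compared with the late days (14 and 28), a division made here to follow the course over time. The mean log2 ratio of *Pdgfc* was 1.67 on the early days and −0.14 on the late days, a difference of 1.81 (SE 0.47, 95% interval 0.61 to 3.02, adjusted p = 0.399 from limma). This difference includes the sham spots of days 3 and 7 that were not found, and it was 0.95 when such spots were raised and 0.65 with 50 added before log2. That of *Pdgfa* was 0.32 on the early days and −0.62 on the late days, a difference of 0.94 (SE 0.31, 95% interval 0.15 to 1.72, adjusted p = 0.417 from limma). Neither ligand passed the test after adjustment. *Pdgfd* went the other way, with −0.25 on the early and 0.27 on the late days, and the interval of its difference ran from −1.22 to 0.18 (adjusted p = 0.518 from limma). When each day was left out, the *Pdgfd* difference ranged from −0.76 without day 14 to −0.28 without day 28. The differences of *Pdgfb* and *Pdgfrl* were 0.17 (95% interval −0.47 to 0.82) and 0.32 (95% interval −0.36 to 1.01). With each day left out in turn they ranged from 0.07 without day 5 to 0.34 without day 7 for *Pdgfb*, and from 0.03 without day 28 to 0.61 without day 14 for *Pdgfrl*. In this comparison limma called none of the members and 0% of all genes tested, while 1766 of the 16113 genes had an unadjusted p under 0.05.

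The genes whose log2 intensities ran most like those of a member were ranked by the Pearson correlation coefficient (*PCC*) over the 10 samples, among 10535 genes found on all arrays. The samples share the operation and the day, and *Pdgfrl* and *Pdgfb* each fall into separate sham and TAB ranges. A *PCC* here thus also reflects the gap between operations. Nearest to *Pdgfrl* were *Col5a2* (*PCC* = 0.997), a fibrillar collagen gene, *Serpinf1* (0.994), which encodes a secreted serpin, and *Mfap5* (0.994), which encodes a microfibril protein. Their mean log2 ratios were 3.06, 1.73 and 3.35. Nearest to *Pdgfb* were *Map4k4* (0.969), a kinase gene, *Rnf19a* (0.961), an E3 ubiquitin ligase gene, and *Kremen1* (0.954), which encodes a receptor of Dickkopf proteins. For these genes the mean log2 ratios were 0.67, 0.37 and 0.63. Nearest to *Pdgfa* were *Fam18b* (0.967), *Bcl7c* (0.858) and *Uspl1* (0.846), and nearest to *Pdgfd* were *Atg16l2* (0.891), *Tprgl* (0.882) and *Rapgef3* (0.858). *Pdgfc* was left out because 2 of its spots were not found.

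Beyond the ligands and receptors, a list chosen with earlier results of these data known was followed, and its counts are a description only. It held 49 genes that process or bind PDGF, transmit or restrain the signal of its receptors, or belong to related class III receptor kinases. Of these 48 were measured, 12 rose, none fell and 36 did not pass the test, beside 9.19% of all genes that were called higher. Their median log2 ratio was 0.13, beside −0.03 over all genes tested. This count rested on the days together: it was 1 without day 3, 0 without day 5 or without day 7, 3 without day 14 and 9 without day 28 (*Cspg4*, *Il34* and *Ptprj* lost), and it was 3 (*Plat*, *Sla* and *Sparc*) when the filter on low values was replaced by a floor of 1, under which 2.30% of all genes were called higher. Calls over the whole array went from 2749 to 30, 98, 22, 947 and 2753 without days 3, 5, 7, 14 and 28.

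Among 8 genes of ligand processing and binding, 4 rose, and the median log2 ratio was 0.71. *Sparc*, a matricellular protein known to bind PDGF-B, had the largest mean log2 ratio, 1.65 (SE 0.16, adjusted p = 0.0116 from limma). Its mean intensity was 2865 in sham and 9160 in TAB. *Lrp1*, an endocytic receptor that associates with the beta receptor, had 0.83 (SE 0.18, adjusted p = 0.0339 from limma). *Plat*, the tissue plasminogen activator that cleaves latent PDGF-C into its active form, had 0.77 (SE 0.12, adjusted p = 0.0207 from limma), and *Cspg4*, a proteoglycan of pericytes that binds PDGF-A, had 0.65 (SE 0.15, adjusted p = 0.0349 from limma). Beyond the losses above, *Cspg4* was not called with the mean of all probes. *Furin*, the convertase that processes the precursors of PDGF-A and PDGF-B, did not pass the test, with −0.63 (SE 0.17, adjusted p = 0.0558 from limma). *Plau*, the urokinase that activates PDGF-D, had −0.36 (SE 0.16, adjusted p = 0.155 from limma). *St14*, a protease gene, was found on 1 array only and was not called (adjusted p = 0.102 from limma).

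Among the 23 measured effectors and adaptors downstream of the receptors, only *Stat3*, a transcription factor, rose, by a mean of 0.52 on the log2 scale (SE 0.10, adjusted p = 0.0255 from limma), and the median of the group was −0.01. The probe of *Plcg1* was found on no array. Of 10 negative regulators 4 rose, with a median of 0.36, or 0.42 without *Ptpn2*, whose probe was found on no array. *Sla*, an adaptor that down-regulates receptor signalling and is known mainly from blood cells, had 1.58 (SE 0.19, adjusted p = 0.0140 from limma). *Cbl*, the ubiquitin ligase that targets activated receptors for degradation, had 0.90 (SE 0.19, adjusted p = 0.0309 from limma). The phosphatase genes *Ptprj* and *Ptpn1* had 0.86 and 0.68, with adjusted p of 0.0339 and 0.0380 from limma, and the *Ptprj* probe was found on 1 sham and 4 TAB arrays. Beyond the losses above, *Ptprj* was not called when spots not found were raised, after median scaling only, or with the mean of all probes. Of 7 class III receptor kinases and their ligands, 3 rose. These were the stem cell factor receptor gene *Kit* (0.93), the macrophage colony-stimulating factor receptor gene *Csf1r* (0.86) and *Il34* (0.66), which encodes a ligand of the latter, with adjusted p of 0.0312, 0.0295 and 0.0480 from limma. Beyond the losses above, *Il34* was not called without the day block, with every probe on its own, or with spots not found raised.

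**Figure D4:**
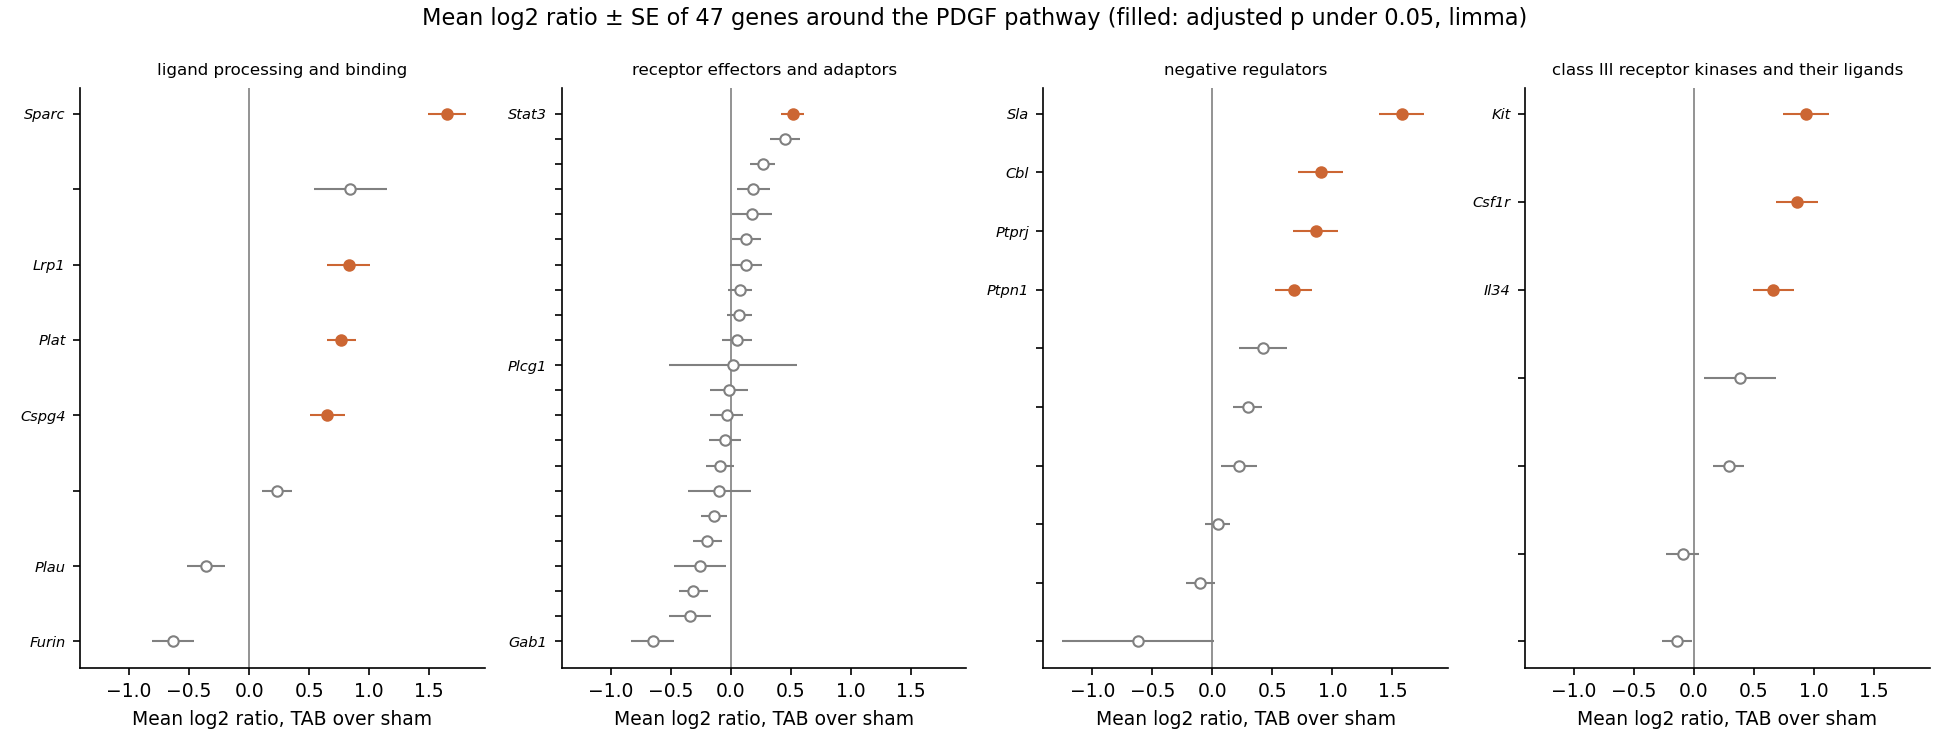
Mean log2 ratio of TAB over sham (x axis, bars are the SE from limma) of 47 of the 48 measured genes around the PDGF pathway in 4 groups. Filled orange points are genes whose adjusted p from limma was under 0.05, and open points are the rest. Names are given for the filled points and for *Furin*, *Plau*, *Gab1* and *Plcg1*. The 12 filled points all lie above 0, and 1 of them belongs to the effectors and adaptors.

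Markers of the cell types that carry or supply PDGF were set beside these results, and most of those of fibroblasts and macrophages were higher in TAB. Over all genes tested, 9.19% were called higher. Of 10 measured fibroblast markers 7 rose and none fell, with a median log2 ratio of 1.21. Those not called were *Dcn*, *Tcf21* and *Dpt*, with mean log2 ratios of 0.26, 0.24 and 0.13. The summed normalized intensity of the fibroblast markers ranged from 21617 to 24814 in sham and from 31237 to 49780 in TAB, and *Col1a1* was found on no array. *Dcn* made up most of this sum in sham, with means of 16938 in sham and 20399 in TAB. *Postn* had means of 1258 in sham and 13592 in TAB. Of 6 measured macrophage markers 5 rose, and their sum ranged from 4038 to 5046 in sham and from 6399 to 15328 in TAB. Most of this sum was *C1qa*, with means of 3056 in sham and 7543 in TAB. Of 10 measured mural cell markers 3 rose and none was called lower, with a median log2 ratio of 0.22 and 6 of the 10 above 0. *Abcc9*, *Rgs5*, *Kcnj8* and *Myh11* had negative mean log2 ratios of −0.72, −0.59, −0.26 and −0.11. The mural sums were 6972 to 8225 in sham and 7424 to 8590 in TAB. *Cnn1* was found on no array and *Tagln* on no sham array. Of 9 endothelial markers none was called, with sums of 10393 to 13530 in sham and 11666 to 15309 in TAB, and *Erg* was found on no array. Of 4 measured platelet markers *Pf4* alone rose, and *Itga2b* was found on no array. Their sums, which consist mostly of *Pf4*, ranged from 1645 to 2163 in sham and from 2519 to 3925 in TAB, while *Ppbp*, *Gp9* and *Gp1ba* had mean log2 ratios of 0.86, 0.35 and −0.22 and were not called. The part of these cell types in the differences of *Pdgfrl*, *Pdgfb* and the pathway genes was not tested. Among the lists for other tissue, none of 3 epicardial and none of 3 adipocyte markers was called, and of 3 T cell markers *Cd3d* was called higher, although found on no sham array, and *Cd3e* lower.

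The labels were checked with the tissue and the operation. All 7 cardiomyocyte markers were found on every array and none was called, with sums of 219377 to 251694 in sham and 214269 to 226572 in TAB. *Myl2* was saturated, so that its ratio could not move freely, and without it the sums were 153877 to 186195 in sham and 148774 to 161073 in TAB. *Nppa*, *Nppb* and *Acta1*, which are known to rise in the overloaded ventricle, had mean log2 ratios of 1.81, 1.67 and 1.76. Their sum ranged from 16220.2 to 37325 in sham, with a median of 17511, and from 60640 to 71476 in TAB. The log2 ratio of *Nppb* ran from 0.17 to 2.60 over the days. The split of calls over the array depended on the scaling, with 1481 genes higher and 1268 lower as normalized here, 1782 and 855 after median scaling only, and 1871 and 950 after normalization within each operation.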

How the data were processed

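Left-ventricle RNA labelled with Cy5 was hybridized to the Mouse Whole Genome OneArray v2 and scanned in this single colour (Agilent scanner, GenePix software). The authors deposited the raw intensity of 26423 probes on 10 arrays, unscaled and less a background whose method is not stated. Beside it they deposited a detection p-value per spot, whose computation is not given in the sources used here and which entered no call, and a flag whose value of −50 was read as a spot not found by the image software. No genome build is given for the probes, and no probe sequence was used here.

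After median scaling of all arrays to 47, the 6447 probes that fell below 1 on at least 1 array were dropped, and the 19976 others were quantile normalized over the 10 samples to the median of each rank, after which log2 was taken of the deposited intensity so normalized. For a gene with several probes, the one whose absolute log2 ratios summed highest was used. The mean TAB effect and its difference between early and late days were tested with lmFit and eBayes of limma, without trend or robust options and with day as a block because the study takes ratios of the same day, and with Benjamini-Hochberg adjustment over 16113 genes at 0.05. After subtraction of the group means, same-day samples correlated across genes with r between −0.02 and 0.11. The fits were tested on simulated data, where the comparison of early with late days recovered a smaller share of the changes than the mean effect. Precision is limited by how few arrays there are.

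For the TAB sample of day 14 a condition label reads 15 days, and the 14 of its title was used. The genes, the pathway list and the marker lists were chosen with earlier results of these data known. Genes named from the pathway list are those called, or, where a group had more, the 3 called genes whose mean log2 ratio lay farthest from 0, while *Cspg4*, *Ptpn1*, *Furin*, *Plau*, *St14*, *Gab1*, *Ptpn2* and *Plcg1* were named after their values were seen. Alternatives were median scaling only, the mean of each rank as the target, normalization within each operation, 50 added before log2, the lowest tertile left out, probes below 1 set to 1, other choices among the probes of a gene, only probes found on all arrays, no day block, trend and robust on, each day left out and other thresholds. Raising spots not found to the 1st percentile of the found spots, all alternatives for the pathway list, and the lists without *Myl2* or *Ptpn2* were added after seeing the data. The miRNA arrays were not analysed here, and some pathway genes are not reported here. The fits used limma 3.58.1 in R 4.3.3, and all other steps used pandas 2.3.3, numpy 2.4.6, scipy 1.17.1 and matplotlib 3.10.9 in Python 3.11.15. Promoter sequences are from RefSeq.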

Additional observations from a re-analysis of the deposited data

Results flagged for a closer look

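The TAB sample of day 28 stood apart from the other TAB samples in *Pdgfrl*, with a normalized intensity of 209 against 312 to 357 in the other four. On the log2 scale, its gap to the next sample was 0.75 of the range of the group, past the Dixon critical value of 0.71, whereas on the linear scale it was 0.70 and did not pass. On the log2 scale, it was the only such sample among 10 groups of 5 values, those of the 5 measured members in each operation, and chance gives about 1 in 20 groups. Without the samples of day 28 the mean log2 ratio of *Pdgfrl* was 1.66, with an adjusted p of 0.0106 from limma.

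The *Pdgfra* probe, which was removed by the filter on low values and entered no comparison as normalized here, gave raw intensities of 469 in the sham sample of day 14 and 359 in that of day 7, and at most 0 on the other 8 arrays. Of the 5 probes that were found on these 2 arrays alone, 2 had both intensities at or above 359, and *Pdgfra* is one of these. Among the 4786 probes found on 1 to 9 arrays, 62 had a median intensity of at least 300 over the arrays where they were found.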

How the results depend on the processing

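*Pdgfrl* kept a positive mean log2 ratio under all 18 alternatives of the fit, between 1.20 and 1.66, and its adjusted p from limma lay between 0.000306 and 0.0579. The number of members called higher in TAB was 1, and it ranged from 0 to 1 when each day was left out in turn. Without day 3 and without day 7 it was 0, when 0.18% and 0.12% of all genes were called higher. It was 2, with *Pdgfb* added, with 50 added before log2, the lowest tertile left out, median scaling only, no day block, probes found on all 10 arrays only, normalization within each operation, trend and robust on, and spots not found raised to the 1st percentile of found spots. The share of all genes called higher was 11.1% to 17.7% under the first 7 of these and 7.67% under the last, against 9.19%. Without the replicate block of day, the adjusted p of *Pdgfb* was 0.0171 from limma, and no other call of a member changed. In limma no member was called lower under any alternative, and none differed between early and late days under the 10 alternatives tried for that comparison. The number of DE calls of members over the days was 4, against 0 at 3 SDs, 7 at an absolute log2 ratio of at least 1, and 7 with spots not found raised, when *Pdgfra* on days 7 and 14, lower in TAB, replaced *Pdgfc*. Of all genes and days, 5.59% were DE in either direction, against 1.64%, 16.4% and 4.99% under these rules. The number of pathway genes called higher was 12, against 3 with probes below 1 set to 1, where 2.30% of all genes were called higher, and it ranged from 0 to 9 when each day was left out. The number called lower was 0, against 3 with 50 added, the lowest tertile left out, probes found on all 10 arrays only, or trend and robust on (*Furin* and *Gab1* among them), 2 without the day block, and 1 with the brightest probe or with spots not found raised. The share of all genes called lower was 12.8% to 18.4% under the settings that gave 3, against 7.87%. The cause of these differences was not tested. Low signal limits *Pdgfc* and both receptors, for which spots were not found on 2, 8 and 10 arrays. Differences of single days have no replicate check.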

Other observations

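The deposited detection p-values were not on the same footing on all arrays. In the sham samples of days 7 and 28, 38.6% and 38.0% of the spots had a detection p-value under 0.05, against 18.8% to 23.5% on the other 8 arrays. The median raw intensity of spots with a detection p-value near 0.05 was 85 and 125 on these 2 arrays and between 289 and 376 on the others. *Pdgfd* had a detection p-value of 0.0352 at a raw intensity of 92 in the sham sample of day 7, and one of 0.583 at a raw intensity of 154 in the sham sample of day 3. *Pdgfrl* had a detection p-value under 0.05 on 3 arrays, the TAB samples of days 5, 7 and 14, with raw intensities of 346, 367 and 319.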
